A study of Homo sapiens with 6 samples.

Results

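Close-spaced gene pairs are neighbouring protein-coding genes with only a short stretch of DNA between them. They were taken here as every gap of 1 to 1000 bp between the end of one RefSeq GRCh38 protein-coding gene of at least 1 kb and the start of the next on chromosomes 1 to 22 and X, with genes that do not overlap. The rule used gene positions alone and no measured value. It found 2024 pairs among 16809 gaps between neighbouring protein-coding genes, with a median gap of 266 bp and a range of 1 to 997 bp. The pairs held 3714 of 19447 protein-coding genes (19.1%), and 334 of these genes stood in 2 pairs, so pairs that share a gene can share peaks. Chromosome 19 had the most pairs, 208, which held 26.1% of its protein-coding genes.

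The data were ChIP-seq peak lists from HEK293T, a line derived from human embryonic kidney cells that carries the SV40 large T antigen. Cells were fixed in formaldehyde (1%, 10 min), and the labels name no genotype or treatment. H2A.Z, a variant of H2A, was precipitated with an antibody of CST and with one of Abcam (lists H2AZ CST and H2AZ Abcam). Single antibodies were used for H3.3, a variant of H3, for histone H4 acetylated at lysine 16 (H4K16ac) and for histone H3 dimethylated at lysine 79 (H3K79me2); the input library was not used here. Each antibody had 1 library, so there is no spread between replicates and no test. Shares carry exact Clopper-Pearson 95% intervals, and these cover counting error only.

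Strand was available for both genes of 1462 pairs (72.2%), through the RefSeq promoter table, which separates shared starts from shared ends. In 754 head-to-head pairs the genes run away from each other and the gap lies between 2 starts. In 367 same-direction pairs the gap lies between the end of one gene and the start of the next, and in 341 tail-to-tail pairs it lies between 2 ends. The other 562 pairs were left without an orientation and are kept as their own class. Head-to-head gaps were the shortest, with a median of 166 bp and 78.1% of at most 300 bp, beside medians of 373 bp in tail-to-tail and 487 bp in same-direction pairs.

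Head-to-head genes are usually read from 1 shared region, a bidirectional promoter, which in mammals is typically rich in CpG and poor in TATA boxes. Many such pairs encode housekeeping proteins of mitochondria, ribosomes and DNA repair. H2A.Z flanks the nucleosome-poor centre of active promoters, H3.3 replaces H3 where nucleosomes turn over, KAT8 is the main enzyme behind H4K16ac, and DOT1L places H3K79me2 over the first part of transcribed genes. Transcribed tail-to-tail genes instead send polymerase towards each other.

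The sequences of 7 head-to-head promoters show what such a gap holds. They were chosen from the pairs named below because they span the range found, from pairs with all 5 lists to a pair with none. Each is the RefSeq window of 250 bases before to 50 bases after the start of the gene named first, 5′ to 3′ on the plus strand of GRCh38.p14. Capitals mark matches, on either strand, to the motifs searched. These were GGGCGG of Sp and KLF factors, CCAAT of NF-Y, TATAAA of the TATA box, GCGCNTGCG of NRF1, CCGGAAG of ETS factors, AAGATGGCG of YY1, the E box CACGTG, the cAMP response element TGACGTCA, and ACTACAA of ZNF143. Matches of different motifs were counted separately and can overlap.
HSPE1 (neighbour HSPD1): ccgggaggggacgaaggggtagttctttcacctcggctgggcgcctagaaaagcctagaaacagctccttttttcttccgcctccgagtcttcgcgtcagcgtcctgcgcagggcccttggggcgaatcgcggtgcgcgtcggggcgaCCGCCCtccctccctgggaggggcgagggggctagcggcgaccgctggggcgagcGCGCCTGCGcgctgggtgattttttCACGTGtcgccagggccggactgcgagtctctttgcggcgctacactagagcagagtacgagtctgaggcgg
MRPS12 (neighbour SARS2): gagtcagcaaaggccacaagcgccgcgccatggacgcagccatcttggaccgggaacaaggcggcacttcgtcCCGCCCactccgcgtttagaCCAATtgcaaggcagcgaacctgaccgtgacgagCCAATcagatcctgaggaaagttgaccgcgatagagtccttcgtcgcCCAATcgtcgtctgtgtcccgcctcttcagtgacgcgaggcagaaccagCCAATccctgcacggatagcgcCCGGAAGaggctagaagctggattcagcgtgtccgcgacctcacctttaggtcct
YBEY (neighbour MCM3AP): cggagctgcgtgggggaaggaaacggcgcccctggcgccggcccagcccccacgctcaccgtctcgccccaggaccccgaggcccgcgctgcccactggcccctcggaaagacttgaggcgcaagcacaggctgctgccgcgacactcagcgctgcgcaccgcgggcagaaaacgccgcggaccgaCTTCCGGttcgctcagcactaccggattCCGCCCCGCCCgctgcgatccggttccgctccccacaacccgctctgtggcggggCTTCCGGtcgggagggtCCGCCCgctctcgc
NCDN (neighbour KIAA0319L): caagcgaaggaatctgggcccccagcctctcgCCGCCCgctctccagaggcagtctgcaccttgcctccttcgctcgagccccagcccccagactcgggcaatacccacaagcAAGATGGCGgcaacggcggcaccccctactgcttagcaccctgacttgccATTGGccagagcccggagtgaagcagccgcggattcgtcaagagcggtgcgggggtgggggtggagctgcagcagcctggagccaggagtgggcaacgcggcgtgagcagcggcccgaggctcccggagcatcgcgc
SDHAF2 (neighbour CPSF7): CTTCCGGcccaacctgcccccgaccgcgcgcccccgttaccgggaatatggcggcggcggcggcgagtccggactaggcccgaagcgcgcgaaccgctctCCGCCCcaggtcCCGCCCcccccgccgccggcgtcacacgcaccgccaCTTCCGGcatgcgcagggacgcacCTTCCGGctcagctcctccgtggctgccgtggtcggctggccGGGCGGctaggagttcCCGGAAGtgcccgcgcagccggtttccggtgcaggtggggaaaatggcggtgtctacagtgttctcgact
COL4A3 (neighbour COL4A4): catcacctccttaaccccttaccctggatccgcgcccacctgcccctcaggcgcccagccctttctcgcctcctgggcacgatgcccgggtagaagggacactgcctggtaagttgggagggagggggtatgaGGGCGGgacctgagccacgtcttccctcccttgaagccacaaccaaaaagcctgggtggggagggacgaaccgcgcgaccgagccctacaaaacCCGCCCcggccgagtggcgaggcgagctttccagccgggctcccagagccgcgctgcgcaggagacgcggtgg
MAGEA12 (neighbour CSAG1): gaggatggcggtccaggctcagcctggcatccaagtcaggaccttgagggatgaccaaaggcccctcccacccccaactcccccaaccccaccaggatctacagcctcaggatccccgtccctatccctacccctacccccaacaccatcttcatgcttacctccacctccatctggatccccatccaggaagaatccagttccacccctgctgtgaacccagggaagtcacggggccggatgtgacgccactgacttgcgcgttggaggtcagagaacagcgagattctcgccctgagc
The first is the start of HSPE1, at chr2:197500129-197500428, whose gap to HSPD1 fills bases 147 to 250 and holds an NRF1 match, an E box and a GGGCGG match. HSPD1 and HSPE1 encode the mitochondrial chaperonin and its co-chaperonin. The window of MRPS12, a mitochondrial ribosomal protein, at chr19:38930694-38930993, has 4 CCAAT matches, all on the plus strand, within its gap (bases 71 to 250) to SARS2, the mitochondrial seryl-tRNA synthetase. The window of YBEY, a protein of mitochondrial ribosomal RNA processing, at chr21:46286092-46286391, and that of SDHAF2, an assembly factor of succinate dehydrogenase, at chr11:61429874-61430173, hold 2 and 4 ETS matches. Their neighbours are MCM3AP, an mRNA export factor, and CPSF7, a subunit of a 3′ end processing factor. In the window of NCDN (neurochondrin), at chr1:35557549-35557848, a YY1 match begins at base 114, the first base of the gap to KIAA0319L. COL4A3, a collagen chain of basement membranes, at chr2:227164374-227164673, has 2 GGGCGG matches and none of the other motifs. MAGEA12, a cancer-testis antigen gene, at chrX:152733507-152733806, has no match to any of them.

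Over all head-to-head genes most of these motifs were commoner than at single starts. A window placed exactly at the annotated start was available for 1374 of 1508 head-to-head genes and for 8675 isolated starts, which are starts of genes with no other listed gene within 5 kb on that side. The windows of a head-to-head pair overlap wherever the gap is short, so they are not independent. A match is a description of letters and not a measured binding site.

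ETS matches stood in 30.2% of head-to-head windows (27.8 to 32.7%), against 11.8% (11.1 to 12.5%) of isolated starts and 14.9% of all 13391 protein-coding starts. NRF1 matches stood in 19.3% (17.2 to 21.5%), against 10.3% of isolated starts and 11.6% of all starts. YY1 matches stood in 5.60% (4.45 to 6.95%), against 2.49% and 2.94%. ETS, NRF1 and YY1 factors are known regulators of housekeeping genes, and matches to each of these motifs were more frequent in the pairs than at isolated starts. ZNF143 matches stood in 6.84% of head-to-head windows, against 2.71% of isolated starts and 3.19% of all starts, and GGGCGG in 73.4%, against 58.1% and 59.8%. TATAAA went the other way, with 2.55% of head-to-head windows against 10.6% of isolated and 9.17% of all starts. CCAAT stood in 42.1% of head-to-head windows, against 36.8% of isolated and 36.8% of all starts, and CACGTG in 11.2%, against 8.41% and 9.16%. TGACGTCA stood in 3.42% (2.52 to 4.52%), against 2.72% (2.39 to 3.08%) and 2.70%, and for this motif the intervals of head-to-head and isolated windows overlapped. CpG was also denser in the pairs. The ratio of observed to expected CpG had a median of 0.881 in head-to-head windows, against 0.757 at isolated starts and 0.774 at all starts, and 93.7% of head-to-head windows reached 0.6, against 64.3% and 67.7%.

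Most head-to-head windows carried H2A.Z and H3K79me2 peaks. Peaks were counted in the gap plus 500 bp on each side. As background, the same counts were made at 9946 isolated starts and 9287 isolated ends, in windows from 500 bp inside the gene to 766 bp outside, which makes them as wide as the median pair window of 1266 bp. H2AZ CST peaks lay in 716 of 754 head-to-head windows (95%, 93.1 to 96.4%), against 64.3% of isolated starts, and H2AZ Abcam peaks in 720 (95.5%, 93.8 to 96.9%), against 65.7%. H3K79me2 lay in 686 (91.0%, 88.7 to 92.9%), against 47.4%. H3.3 lay in 612 (81.2%, 78.2 to 83.9%), against 53.9%, and H4K16ac in 428 (56.8%, 53.1 to 60.3%), against 42.5%. H3K79me2 thus had the widest margin over isolated starts, 43.5 percentage points (41.1 to 45.6), and H4K16ac the narrowest, 14.3 points (10.6 to 17.9). In the gap alone, without flanks, H2AZ CST lay in 74.7% of head-to-head pairs and H2AZ Abcam in 85.9%, H3K79me2 in 80.1%, H3.3 in 48.3% and H4K16ac in 19.9%. Against the 266 bp outside isolated starts, longer than the median head-to-head gap of 166 bp, H4K16ac in the gap alone differed by 1.72 points (−1.09 to 4.81). All 5 lists met in 385 head-to-head windows (51.1%), against 28.6% of isolated starts, and 13 windows (1.72%) had no peak, against 28.3%.

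**Figure D1:**
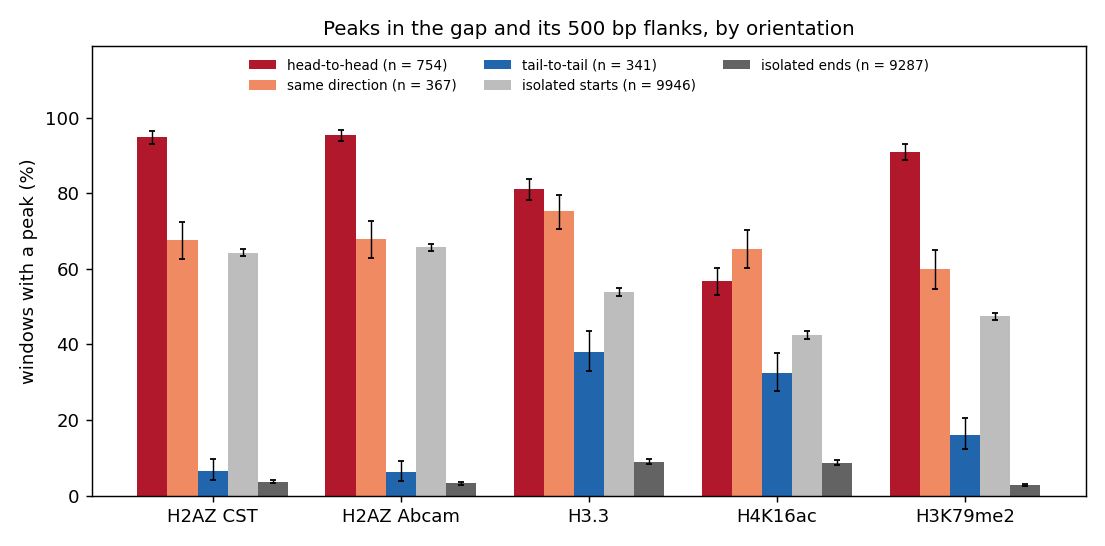
Share of windows with at least 1 peak of each list, in percent, for head-to-head, same-direction and tail-to-tail pairs and for isolated gene starts and ends. Error bars are exact Clopper-Pearson 95% intervals. Head-to-head pairs reach 95% for H2AZ CST, tail-to-tail pairs 6.45%, while for H3.3 the tail-to-tail pairs stand at 38.1% and isolated ends at 8.98%.

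A head-to-head window holds 2 starts and an isolated window 1, so each start was also taken by itself. A peak that crosses the gap still counts for both starts. An H2AZ CST peak reached into the first 500 bp of 84.5% of the 1508 head-to-head genes (82.6 to 86.3%), against 58.2% of isolated starts (57.2 to 59.1%). For H2AZ Abcam the shares were 86.7%, against 62.4%. For H3K79me2 they were 81.4% (79.3 to 83.3%), against 46.9% (45.9 to 47.9%), and for H3.3 63.1%, against 47.1%. H4K16ac was the exception: it reached 36.9% of head-to-head starts (34.4 to 39.4%), against 36.0% of isolated starts (35.1 to 37.0%), and these intervals overlap. Per start, then, the margin seen for H4K16ac over whole windows was not detectable. The pairs also differed in symmetry. H2AZ CST marked both starts in 561 head-to-head pairs (74.4%) and 1 start in 153, H3K79me2 both in 542 (71.9%) and 1 in 143, H3.3 both in 342 (45.4%) and 1 in 268. H4K16ac marked both starts in 132 pairs (17.5%) and only 1 in 292 (38.7%). Wide peaks reach both starts more easily. The median peak width in these windows was 2373 bp for H3K79me2, 448.5 bp for H2AZ CST, 365 bp for H3.3 and 301 bp for H4K16ac. Of the windows with a peak, 69.5% for H3K79me2 and 41.6% for H2AZ CST held a single one. The part of peak width in the symmetry was not tested.

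Inside the gap itself summits were rare. Of the 1071 H2AZ CST summits in head-to-head windows, 6.72% lay in the gap, although gaps made up 17.8% of the window bases. For the other lists 6.04% (H2AZ Abcam), 6.32% (H3.3), 6.29% (H4K16ac) and 1.57% (H3K79me2) lay there. Summits therefore stood mostly in the first 500 bp of the genes, on either side of the gap. In tail-to-tail windows, where gaps made up 29.5% of the bases, 27.8% of the H3.3 summits and 20.5% of the H4K16ac summits lay in the gap. Within the genes the H2A.Z signal of head-to-head pairs also ended sooner. From 0 to 250 bp inside genes of at least 5 kb, H2AZ CST covered 71.2% of bases in head-to-head genes, against 43.8% at isolated starts, while from 750 to 1000 bp inside it covered 9.42%, against 16.8%. H3.3 crossed in the same way, with 44.8% against 29.5% in the first 250 bp and 8.49% against 14.9% from 750 to 1000 bp. H3K79me2 did not cross: it covered 66.3% from 750 to 1000 bp, against 42.8%, and 22.0% from 4750 to 5000 bp, against 19.1%.

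**Figure D2:**
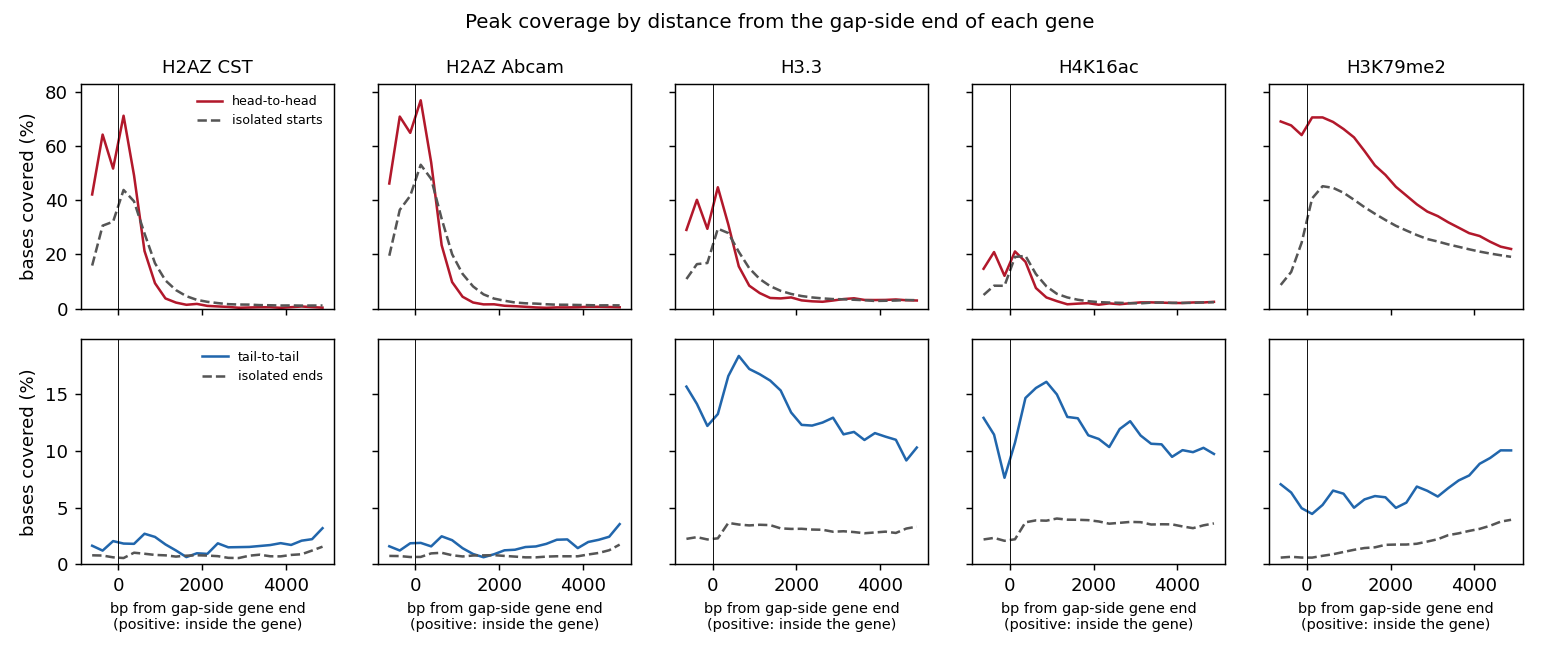
Bases covered by peaks, in percent, in 250 bp steps by distance from the gap-side gene end (positive values lie inside the gene), for genes of at least 5 kb. Upper panels show head-to-head genes and isolated starts, lower panels tail-to-tail genes and isolated ends, on a different scale. H2AZ CST falls from its maximum more steeply in head-to-head genes, to 9.42% at 750 to 1000 bp, against 16.8% at isolated starts.

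Longer head-to-head gaps were less filled by H3K79me2. With gaps of 1 to 100 bp, 92.4% of 197 windows had H2AZ CST and 86.8% had H3K79me2, and with gaps of 301 to 500 bp 97.3% and 91.1% of 112 windows had them. H3.3 stood in 78.2% of windows with gaps of 1 to 100 bp, 77.6% at 101 to 200 bp, 83.0% at 201 to 300 bp, 87.5% at 301 to 500 bp, 90.3% of 31 windows at 501 to 700 bp and 90.9% of 22 windows at 701 to 1000 bp. H3K79me2 covered 71.4% of the gap bases in gaps of 1 to 100 bp, 70.0% at 101 to 200 bp, 62.6% at 201 to 300 bp, 48.7% at 301 to 500 bp, 41.5% at 501 to 700 bp and 36.6% at 701 to 1000 bp, the last over 22 pairs. A single H3K79me2 peak spanned the whole gap in 382 head-to-head pairs (50.7%), beside 57 same-direction pairs (15.5%) and 16 tail-to-tail pairs (4.69%). The median gaps of these classes were 166, 487 and 373 bp, so the spanning shares are not matched for length. The longest peak over a head-to-head gap measured 30177 bp and joined LRRC40 with SRSF11, a splicing factor gene. The next, of 27893 bp, joined SAFB2 with SAFB, which encode a related pair of scaffold attachment factors that bind RNA.

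Shares just inside the limit of 1000 bp were no higher than just outside it. Over all orientations, H2AZ CST stood in 50% of the 110 windows with gaps of 901 to 1000 bp, beside 51.4% of 74 windows just outside the rule, with gaps of 1001 to 1100 bp. For H2AZ Abcam the shares were 52.7% and 55.4%, for H3.3 59.1% and 64.9%, for H4K16ac 46.4% and 55.4%, and for H3K79me2 43.6% and 44.6%. Over all 2024 pairs H2AZ CST stood in 65.6% of windows, against 35% of isolated starts and ends together, H2AZ Abcam in 65.7%, against 35.6%, and H3.3 in 70.0%, against 32.2%. H4K16ac stood in 54.8%, against 26.2%, and H3K79me2 in 63.7%, against 25.9%. The pairs without an orientation lay between the other classes, with H2AZ CST in 60.7%, H3.3 in 71.0% and H3K79me2 in 58.4%. The authors' −log10 q, which grows with the evidence for a peak, is used here as peak strength. With peaks of −log10 q of at least 10 only, H4K16ac changed most: its share over all pairs was 29.1%. In the gap alone, without flanks, it was 23.9%, while H3.3 in the gap alone had 45.7%.

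Close head-to-head starts were next set beside head-to-head starts that lie farther apart. Each gene end was given the same window, 500 bp inside to 766 bp outside, and grouped by the distance to its neighbour, with classes chosen after seeing the data. H2AZ CST stood at 95% of 1508 starts with a neighbour within 1000 bp, at 70.5% of 332 with a neighbour at 1001 to 5000 bp, at 67.4% of 870 at 5001 to 20000 bp, at 64.9% of 1760 at 20001 to 100000 bp and at 64.3% of 1152 beyond that. H3K79me2 followed with 91.0%, 58.4%, 53.7%, 51.6% and 43.3%. For these lists the largest step lay between the first class and the second. In the first class the window also reaches the neighbour's start in most pairs, so it can catch that start's peaks. H4K16ac changed more evenly, with 56.5%, 49.1%, 46.7%, 44.0% and 36.4%.

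**Figure D3:**
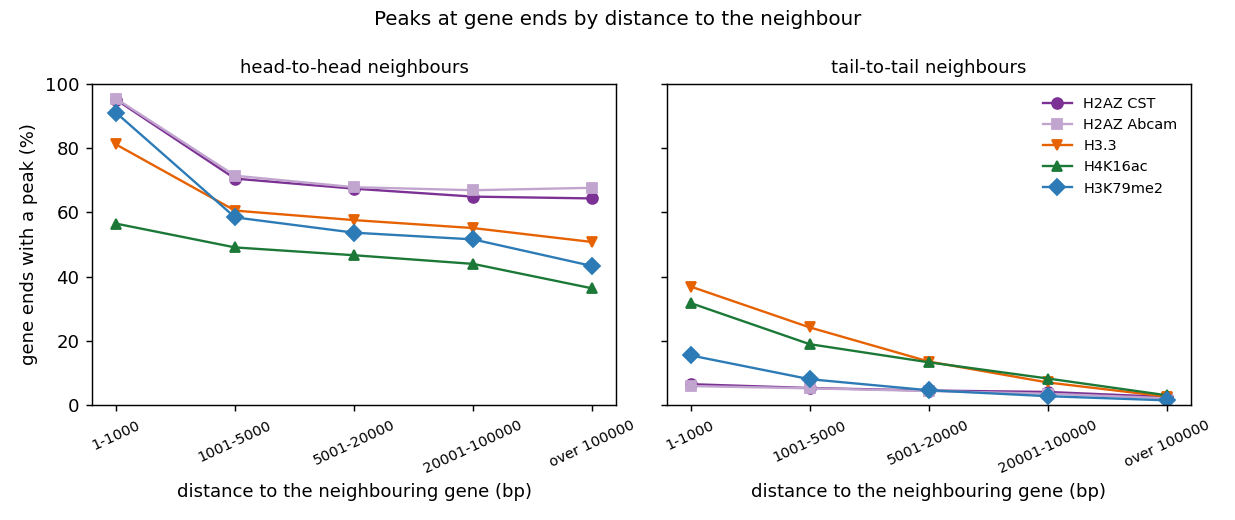
Share of gene ends with a peak, in percent, by distance to the neighbouring gene (5 classes, in bp), for head-to-head and tail-to-tail neighbours; every end has the same window. H3.3 at tail-to-tail ends is at 37.0% for neighbours within 1000 bp and at 2.75% beyond 100000 bp.

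Tail-to-tail windows carried little H2A.Z, yet H3.3, H4K16ac and H3K79me2 were several times commoner there than at isolated ends. H2AZ CST lay in 22 of 341 tail-to-tail windows (6.45%, 4.09 to 9.61%), against 3.63% of isolated ends, and H2AZ Abcam in 21 (6.16%), against 3.28%. H3.3 lay in 130 (38.1%, 32.9 to 43.5%), against 8.98%, and H4K16ac in 111 (32.6%, 27.6 to 37.8%), against 8.74%. H3K79me2 lay in 55 (16.1%, 12.4 to 20.5%), against 2.8%. A tail-to-tail window holds 2 ends and an isolated window 1, so each end was also taken by itself. A peak that crosses the gap still counts for both ends. An H3.3 peak reached into the last 500 bp at 28.0% of 682 tail-to-tail ends, against 6.41% of isolated ends. For H4K16ac the shares were 22.9%, against 6.54%, and for H3K79me2 11.7%, against 2.34%. For H2AZ CST they were 3.52% (2.27 to 5.19%), against 2.19% (1.90 to 2.50%), and these intervals overlap. The commonest combination in tail-to-tail windows was H3.3 with H4K16ac and no other list, in 54 pairs (15.8%). No peak stood in the windows of 180 pairs (52.8%), against 85.7% of isolated ends. Head-to-head minus tail-to-tail, the shares differed by 88.5 percentage points (84.9 to 91.0) for H2AZ CST, 89.3 for H2AZ Abcam, 74.9 for H3K79me2 and 43.0 (37.0 to 48.7) for H3.3. H4K16ac differed by 24.2 points (18.0 to 30.1), but by 6.50 points with peaks of −log10 q of at least 10 only or 5.23 points in the gap alone, and H3.3 by 27.7 points in the gap alone. Tail-to-tail gaps are longer, with a median of 373 bp beside 166 bp, so the gap-alone differences are not matched for length.

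The tail-to-tail signal was graded with distance. H3.3 stood at 37.0% of 682 tail-to-tail ends with a neighbour within 1000 bp, at 24.2% at 1001 to 5000 bp, 13.6% at 5001 to 20000 bp, 7.12% at 20001 to 100000 bp and 2.75% beyond. H4K16ac had 31.8%, 19%, 13.4%, 8.36% and 3.14% in the same classes. With both genes at least 20 kb long the levels were lower, with 17.4%, 11%, 5.79%, 4.12% and 1.05% for H3.3 and 19.8%, 8.79%, 8.47%, 5.29% and 2.11% for H4K16ac. The genes differed in length too. Their median was 16.8 kb in tail-to-tail pairs, while 5778 of the 9287 isolated ends belonged to genes of at least 20 kb. With both genes at least 20 kb long, H3.3 remained in 16 of 86 tail-to-tail windows (18.6%, 11 to 28.4%), against 6.01% of 5778 isolated ends of such genes. H4K16ac remained in 19 (22.1%, 13.9 to 32.3%), against 7.04%, while H3K79me2 lay in 2 of these windows (2.33%, 0.283 to 8.15%), against 0.727%. In the 39 such pairs whose genes both had H3K79me2 at their starts, H3.3 stood in 11 windows (28.2%, 15.0 to 44.9%) and H4K16ac in 13. In the 36 pairs with it at 1 of the starts they stood in 2 (5.56%, 0.680 to 18.7%) and 4, and in the 11 pairs with it at neither, in 3 and 2. The intervals of these small classes overlap. The part of gene length in the remaining difference was not tested.

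Named tail-to-tail pairs show the kinds. CDT1, which licenses replication origins, and APRT, an enzyme of adenine salvage, end 80 bp apart on chromosome 16. Their window had the strongest H3.3 peak of its class (−log10 q 136) and an H3K79me2 peak at 861, with no H2A.Z or H4K16ac. H3K79me2 covered 5362 bp of CDT1 and all 2590 bp of APRT. RNF167, an E3 ubiquitin ligase gene, and PFN1, which encodes the actin-binding protein profilin, were joined over their 429 bp gap by 1 H3K79me2 peak of 5398 bp, again without H2A.Z. In EGFL7 and AGPAT2 the gap had H3.3 (108) and H4K16ac (14.3) and no H3K79me2 peak, although the mark covered 7630 bp of AGPAT2, an enzyme of glycerolipid synthesis, further in. GPC1, a glypican, and ANKMY1 held the strongest tail-to-tail H4K16ac peak (32.7), with H3.3 at 18.6. The few tail-to-tail windows with all 5 lists numbered 4. Among them PRR7 and DBN1, which encodes the actin-binding protein drebrin, had −log10 q values of 17.3 for H2AZ CST, 157 for H2AZ Abcam and 95.5 for H3.3.

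H3K79me2 lay inside both genes of most head-to-head pairs. A gene was counted when a peak covered at least 1 bp of it further than 500 bp inside its gap-side end. A peak over the shared region alone thus did not count. The peak could lie anywhere up to the far end of the gene and need not extend from the gap. Both genes counted in 519 of 754 head-to-head pairs (68.8%, 65.4 to 72.1%), 1 gene in 186 (24.7%) and neither in 49 (6.50%). Over all 2024 pairs both genes counted in 1205 (59.5%, 57.4 to 61.7%), with 189 of 367 same-direction pairs (51.5%) and 204 of 341 tail-to-tail pairs (59.8%). With at least 500 bp covered, the shares were 57.3% of head-to-head and 49.0% of all pairs. Taken singly, 81.2% of head-to-head, 70.0% of same-direction and 74.3% of tail-to-tail genes counted. The 500 bp left out hold the starts of head-to-head genes and the ends of tail-to-tail genes, so these classes are not measured alike. In head-to-head genes of at least 5 kb the median share of the first 5 kb covered was 39.2% (quartiles 10.3 and 76.2%), against 9.98% (0 and 59.0%) at isolated starts. The contrast held in every length class: 35.6% against 0% for genes of 5 to 10 kb, 40.3% against 5.60% for 10 to 30 kb, 47.5% against 20.8% for 30 to 100 kb and 21.4% against 9.95% above 100 kb. These medians count genes with no H3K79me2 as well, and 84.8% of the head-to-head genes had some in the first 5 kb, against 54.7%.

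Partners often differed in the extent of H3K79me2. Over 607 head-to-head pairs with both genes at least 5 kb, the share of the first 5 kb covered differed between partners by a median of 29.6 percentage points, and by at least 50 points in 183 pairs. The Spearman correlation between partners was 0.187, a description across pairs that share libraries and sometimes genes. In 117 of these pairs at least 50% of both stretches was covered, in 36 neither had any, and in 43 one had at least 50% and the other none.

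**Figure D4:**
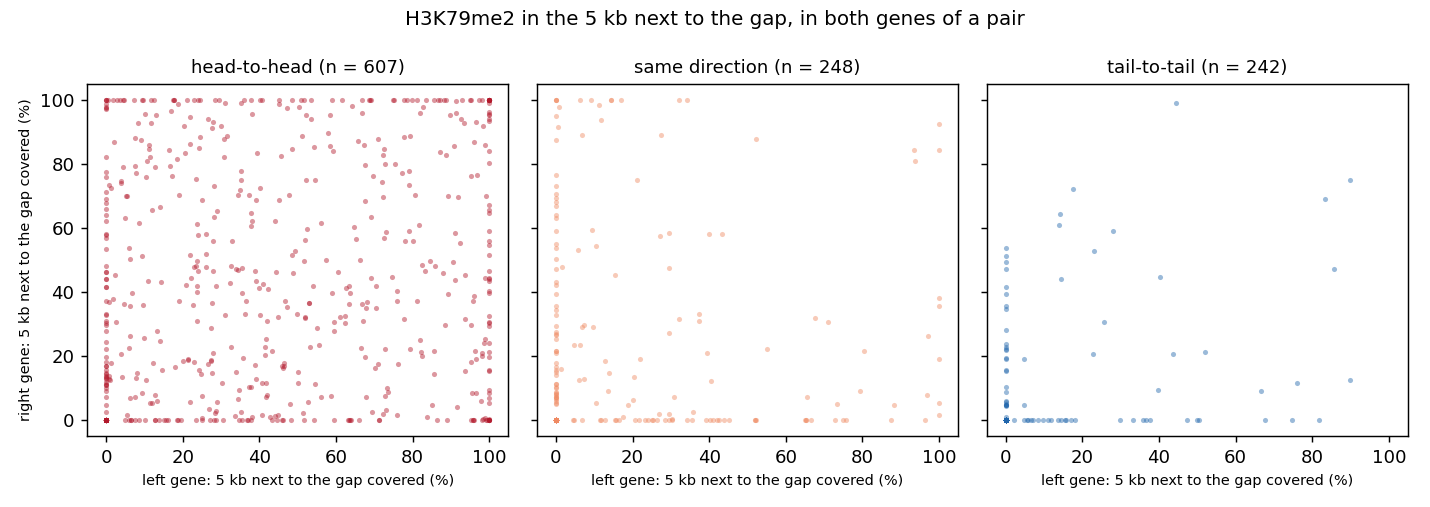
Share of the 5 kb next to the gap covered by H3K79me2, in percent, in the left and the right gene of each pair with both genes at least 5 kb long (607 head-to-head, 248 same-direction and 242 tail-to-tail pairs; 1 point per pair). For tail-to-tail pairs these 5 kb are the ends of the genes. Head-to-head pairs spread over the whole square, with 117 at 50% or more in both genes.

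Ranked by the less covered gene, the head-to-head pairs with the most H3K79me2 were UIMC1 with ZNF346, THAP4 with ATG4B, and DCAKD with NMT1. UIMC1, a ubiquitin-binding protein of DNA repair, had 25140 bp covered, and ZNF346 14190 bp. In ATG4B, a protease of autophagy, 12769 bp were covered and in THAP4 18118 bp. NMT1, an N-myristoyltransferase, had 14830 bp and DCAKD 12262 bp. In the most uneven pairs 1 side was bare. The first 5 kb of FAF1 were fully covered and those of CDKN2C, the cell cycle inhibitor p18, not at all, although H3K79me2 lay over 7305 bp of CDKN2C further in. ACADM, an enzyme of mitochondrial fatty acid oxidation, was fully covered in its first 5 kb while SLC44A5 had 0%. PTPN13, a tyrosine phosphatase, was fully covered in its first 5 kb, with 9631 bp covered over the whole gene (4.36%). Its partner MAPK10, the kinase JNK3 known chiefly from neurons, had no H3K79me2 in its whole length of 583670 bp.

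Where only 1 gene of a head-to-head pair carried H3K79me2, H4K16ac that reached 1 gene alone lay mostly on that gene's side. Among these 186 pairs an H4K16ac peak reached into the first 500 bp of the H3K79me2 gene alone in 68, of the other gene alone in 14, of both in 14 and of neither in 90. For H3.3 the counts were 62 on the H3K79me2 gene alone and 24 on the other alone, with 59 on both. H2AZ CST was mostly on both, in 133 pairs, with 31 on the H3K79me2 gene alone and 12 on the other alone. H2A.Z thus mostly lay on both sides of these gaps, whereas H4K16ac mostly lay on 1 side or none. The same held over all 754 head-to-head pairs. There H2AZ CST reached both sides in 561 (74.4%), and H4K16ac reached 1 side in 292 and neither in 330. A peak that crosses the gap counts on both sides. The presence of the lists also went with the number of H3K79me2 genes. H2AZ CST stood in 97.7% of the pairs with both genes, in 94.6% of those with 1 and in 33 of 49 (67.3%, 52.5 to 80.1%) with neither. H3.3 stood in 84.8%, 78.5% and 53.1% of them, and H4K16ac in 60.1%, 51.6% and 40.8%.

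The strongest head-to-head windows belonged to varied genes. SLC39A6, a zinc transporter, and ELP2, a subunit of the Elongator complex, lie 558 bp apart on chromosome 18. Their window held the top H2AZ CST and H4K16ac peaks of the class, with −log10 q of 218 and 79.9, beside 457 for H2AZ Abcam, 123 for H3.3 and 457 for H3K79me2. KIAA0319L and NCDN, whose YY1 match is shown above, had the top H2AZ Abcam peak (504), and MCM3AP and YBEY the top H3.3 peak (154). SRGAP3 and THUMPD3, 26 bp apart, came next for H3.3 (153) and had no H4K16ac peak. H3K79me2 was strongest between CHMP1A, a component of the ESCRT-III complex, and SPATA33 (906), and next between RPL35, a ribosomal protein, and ARPC5L, an Arp2/3 subunit (869). RPL35 stood in 2 pairs: its far end lies 4 bp from the end of WDR38, where the window held H3.3 and an H3K79me2 peak of the same −log10 q but no H2A.Z.

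Some strong head-to-head H2A.Z windows lacked another list. H4K16ac was missing from 296 of the 716 head-to-head windows with H2AZ CST, H3.3 from 115 and H3K79me2 from 45. Over all 754 head-to-head windows H4K16ac stood in 428, H3.3 in 612 and H3K79me2 in 686. These absences were thus no commoner in windows with H2AZ CST than over all head-to-head windows. THAP4 and ATG4B (H2AZ CST 124) and WASF1 and CDC40 (123) led those without H4K16ac, and both had H3K79me2 in both genes. CDHR4, a cadherin-related gene, and INKA1 (H2AZ CST 102, H2AZ Abcam 473) and GPC2, a glypican, and STAG3, a meiotic cohesin subunit (H2AZ CST 85.6), led those without H3K79me2, and none of these 4 genes had H3K79me2 inside. TCTN3, a protein of the ciliary transition zone, and ENTPD1 (98.9) and POLL, a DNA polymerase of repair, and DPCD (92.0) led those without H3.3. Windows of the genes with H2AZ CST and no H3K79me2 had ETS matches in 12.8% of 78 promoters, beside 30.2% over all head-to-head promoters.

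The 13 head-to-head pairs with no peak were led by the shortest gaps: CSAG1 with MAGEA12 (35 bp) and MAGEA2 with CSAG3 (36 bp) on chromosome X, and LYPD4 with DMRTC2 (44 bp) on chromosome 19. The MAGEA and CSAG genes are cancer-testis genes with near-identical copies. The absence of a peak there is uncertain, because the handling of reads that match several places was not given in the sources used here. Promoter windows were available for 20 genes of the 13 pairs. None of them held GGGCGG, beside 73.4% over all head-to-head windows, and their median ratio of observed to expected CpG was 0.441, beside 0.881.

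Same-direction pairs showed the mixture of an end and a start. H2AZ CST stood in 67.6% of 367 windows (62.5 to 72.3%), against 64.3% of isolated starts, a difference of 3.31 points whose interval ran from −1.73 to 7.99. H3.3 stood in 75.2%, against 53.9%, and H4K16ac in 65.4% (60.3 to 70.3%), against 42.5%, the highest share of H4K16ac in any orientation. Summits lay more often in the downstream start than in the upstream end: 176 and 61 for H2AZ CST, 164 and 95 for H3.3, 150 and 71 for H4K16ac, and 138 and 26 for H3K79me2. In pairs with both genes at least 5 kb, H3K79me2 covered a mean of 28.4% of the first 5 kb of the downstream gene and 8.63% of the last 5 kb of the upstream gene. Where only 1 gene had H3K79me2, it was the upstream gene in 89 pairs and the downstream gene in 47. That count left out 500 bp at the start of the downstream gene but at the end of the upstream gene. The 2 genes were therefore not measured alike, and the part of this in the imbalance was not tested.

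Among same-direction pairs the top H2AZ CST peak lay between AQP10, an aquaporin, and ATP8B2, a phospholipid flippase (155). There H3K79me2 covered 69.8% of the first 5 kb of ATP8B2 and 9.02% of AQP10. The top H3.3 peak lay between USP19, a deubiquitinase, and LAMB2, a laminin chain (168), and the top H4K16ac peak between GNAI2, a G protein subunit, and SEMA3B, a semaphorin (62.3). MTA2, a subunit of the NuRD complex, and EML3 had the top H3K79me2 peak (812), followed by KIF22, a kinesin of mitosis, and MAZ, a zinc finger factor (765). The longest H3K79me2 peak over any gap, 63492 bp, ran through the HOXA10-HOXA9 locus into HOXA11, homeobox genes of body patterning. No H2A.Z peak lay in that window, while H3.3 did (47.8). A peak of 19998 bp ran from the splicing factor gene SF3A2 into AMH, which encodes anti-Müllerian hormone, and H3K79me2 covered 54.0% of AMH.

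Of 17 textbook bidirectional pairs, 11 met the rule, 9 of them head-to-head and 2 without an orientation. HSPD1 and HSPE1 had all 5 lists. Their H2A.Z peaks reached −log10 q of 31.4 (H2AZ CST) and 126 (H2AZ Abcam), with H3.3 at 135, H4K16ac at 22.6 and H3K79me2 at 741. A single H3K79me2 peak of 14033 bp spanned the gap, and the mark covered all of HSPE1 and 10394 bp of HSPD1. SARS2 and MRPS12 also had all 5, with H2AZ CST at 134, but separate H3K79me2 peaks on each gene. FEN1, a nuclease of DNA replication, and TMEM258 had all 5, with 1 H3K79me2 peak of 6207 bp. NPAT, a coactivator of histone genes, and ATM, the DNA damage kinase, lacked H4K16ac, and RPL9 and LIAS, an enzyme of lipoic acid synthesis, lacked H2AZ CST.

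The collagen IV pairs, which encode chains of basement membranes, differed from each other. COL4A1 and COL4A2 had all 5 lists and H3K79me2 over 663 bp and 1395 bp. COL4A4 and COL4A3 had strong H2A.Z (H2AZ Abcam 231) and no H3K79me2 in the window or in either gene. COL4A6 and COL4A5 had weak H2A.Z (H2AZ CST 13.1, H2AZ Abcam 6.31), no H3.3 and no H4K16ac, with 724 bp of H3K79me2 in COL4A5 and none in COL4A6. TAP1, which carries peptides for antigen presentation, and PSMB9, a subunit of the immunoproteasome, had strong H2A.Z (H2AZ Abcam 249.6) with 634 bp of H3K79me2 in TAP1 and none in PSMB9.

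**Figure D5:**
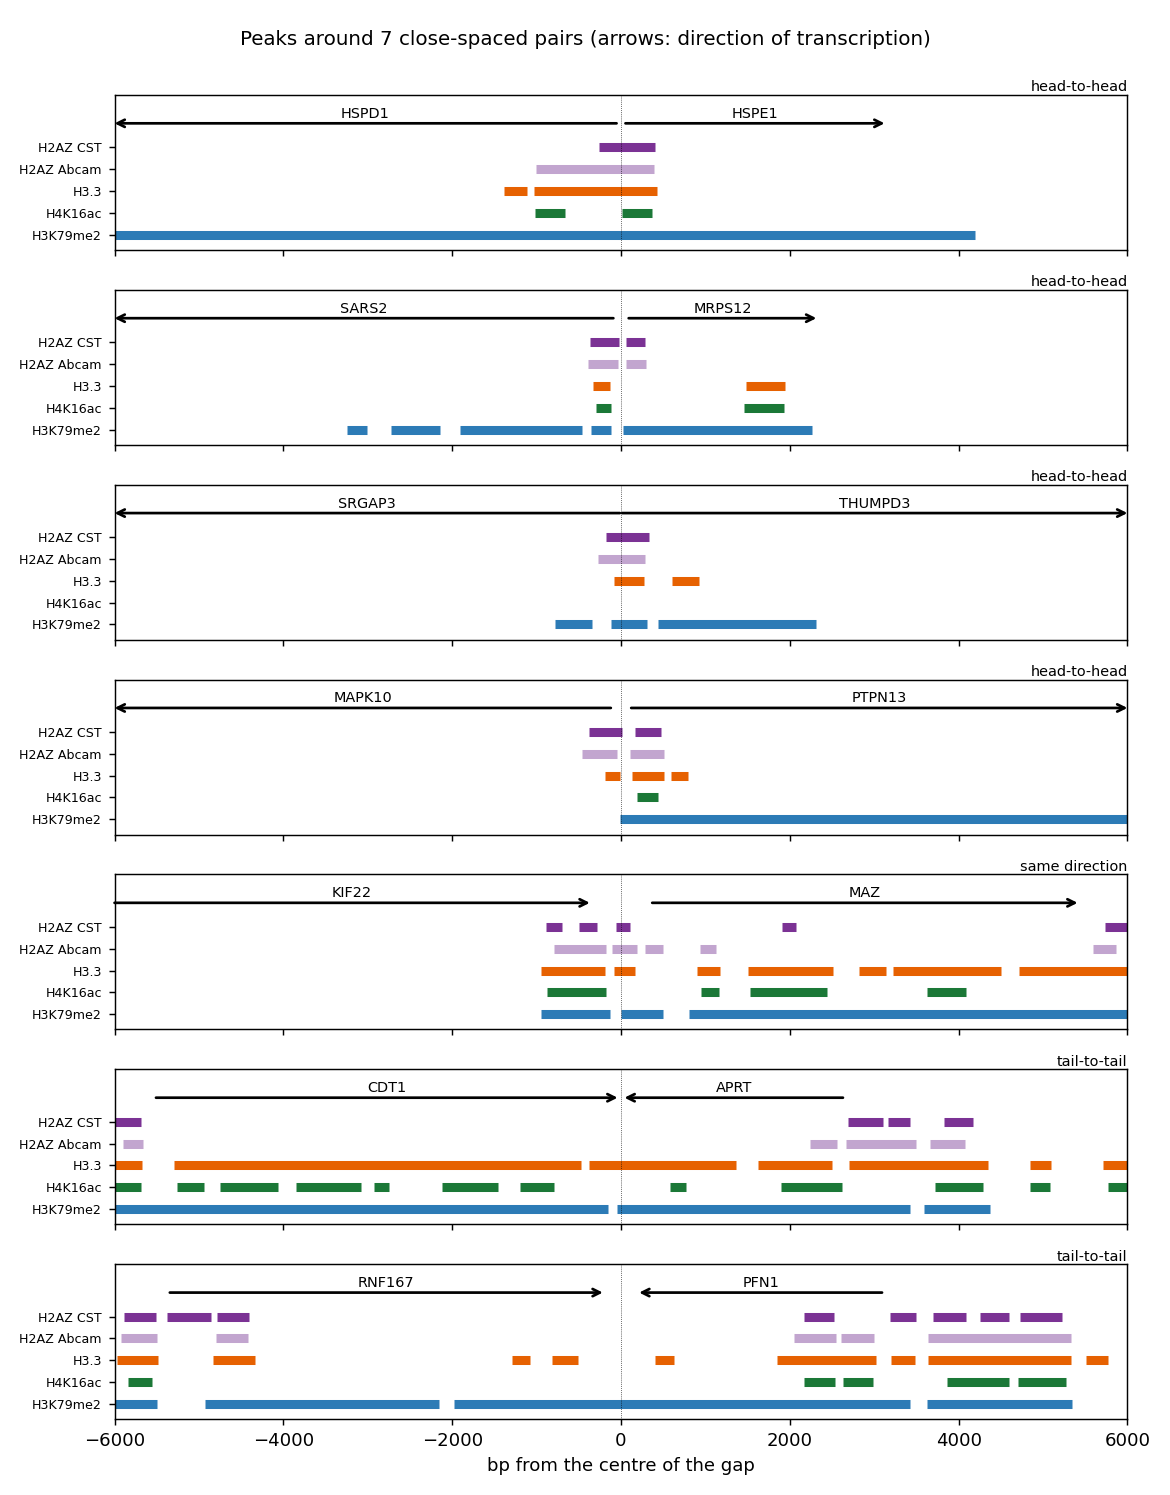
Peaks of the 5 lists (bars) within 6000 bp of the gap centre for 7 named pairs, by distance in bp, with arrows for the direction of transcription. The HSPD1-HSPE1 gap lies under 1 H3K79me2 peak of 14033 bp, MAPK10-PTPN13 has H3K79me2 on the PTPN13 side only, and the CDT1-APRT gap has H3.3 and H3K79me2 without H2A.Z.

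Housekeeping families were well represented among the pairs. Of 75 mitochondrial ribosomal protein genes 33 (44.0%) stood in pairs, as did 11 of 25 mitochondrial import genes (44.0%), 14 of 35 tRNA synthetase genes (40.0%), 13 of 33 RNA polymerase subunit genes (39.4%) and 37 of 101 genes of the respiratory chain and ATP synthase (36.6%). The share over all protein-coding genes was 19.1%. Splicing factors had 29 of 83 (34.9%), proteasome subunits 12 of 39 (30.8%), DNA replication and repair genes 26 of 90 (28.9%), cytosolic ribosomal proteins 28 of 97 (28.9%) and chaperones 21 of 74 (28.4%). Below the overall share lay solute carriers, with 69 of 390 (17.7%), zinc finger genes, with 64 of 537 (11.9%), immune surface and cytokine genes, with 19 of 243 (7.82%), and keratins, with 0 of 87.

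In most of these families nearly all head-to-head windows had H3K79me2, as over all head-to-head pairs. H3K79me2 lay in 17 of 17 head-to-head windows with a mitochondrial ribosomal protein gene, in 15 of 15 with a cytosolic one, in 23 of 23 of the respiratory chain, in 13 of 13 with a splicing factor, in 7 of 7 with a tRNA synthetase, in 4 of 4 with a proteasome subunit and in 5 of 5 with an import gene, beside 91.0% over all head-to-head pairs. It lay in 9 of 10 with an RNA polymerase subunit, in 8 of 9 with a chaperone, in 19 of 22 with a solute carrier and in 1 of 2 with an immune gene. H4K16ac lay in 9, 10, 13, 7, 5, 3 and 3 of the windows of the first 7 of these families, beside 56.8% over all head-to-head pairs. It lay in 5 of 10 with an RNA polymerase subunit, in 8 of 9 with a chaperone, in 12 of 22 with a solute carrier and in 2 of 2 with an immune gene. The zinc finger genes had H3K79me2 in 21 of 23 head-to-head windows and H4K16ac in 16. The head-to-head windows of replication and repair genes had H2AZ Abcam in 15 of 15, H2AZ CST and H3K79me2 in 14 each, H3.3 in 8 and H4K16ac in 6, beside 95.5%, 95%, 91.0%, 81.2% and 56.8% over all head-to-head pairs. Family members are few, and none of these counts was tested.

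Pairs led by their summed −log10 q give examples. HIRA, the chaperone that deposits H3.3, lies 811 bp from MRPL40, a mitochondrial ribosomal protein gene, under 1 H3K79me2 peak of 10568 bp, with H3.3 at 65.4. TCP1, a subunit of the cytosolic chaperonin, and MRPL18 shared a peak of 12203 bp over the gap, and their first 5 kb were covered at 100% and 99.1%. MRPS2 had H3K79me2 over 4243 bp and its partner PIERCE1 over 4 bp. Likewise PSMD9, a chaperone of proteasome assembly, had 3977 bp and HPD, an enzyme of tyrosine breakdown in liver, 2 bp, although the window between them held all 5 lists. PLEKHJ1 and SF3A2 were covered together by a peak of 19998 bp, the same that reached AMH.

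As a check of the labelled cells, the liver genes ALB and APOA2 and the red cell gene HBB had no peak of any list, the blood cell genes PTPRC and CD3E had H2A.Z peaks and no others, and HBA1 had H3.3 alone. INS had peaks of 3 lists. Of the kidney development genes, PAX2 was covered by H3K79me2 over 0.306% of its length and LHX1 over 3.13%, and PAX8 and EYA1 had none. The 5 lists held 44634 to 76748 peaks, and 2.06 to 4.42% of each list's peaks touched the pair windows. Library depth was not given in the sources used here, and shares of different lists cannot be read as relative amounts of the proteins.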

How the data were processed

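ChIP-seq peak lists of 5 antibodies in HEK293T cells were used, 1 library each; the input library was not used here. The tools, per the submitters' processing notes, were MACS2 2.1.0, Bowtie 1.1.2, Trimmomatic 0.33 and bcl2fastq 2.17, with build hg38. Their settings, the read depth and the treatment of duplicate or multiply matching reads were not given in the sources used here. From 1 library each, the authors called the deposited lists, which give peak positions and summits, the fold enrichment as a ratio, and −log10 p and −log10 q. The authors' display score and the p column were not used, and the authors' −log10 q served only to rank and filter peaks within a list.

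Gene positions and promoter windows came from RefSeq tables of GRCh38.p14, which is hg38. Strand came from the promoter table, where 15411 of 19447 protein-coding genes of at least 1 kb matched. Overlap of at least 1 bp counted. Intervals of shares are exact Clopper-Pearson and those of differences Newcombe, at 95%, for counting error only. Members, gene lists and motifs were chosen with earlier results of these data known.

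Pairs were named by rules applied in a script. For each list and orientation these took the 2 highest −log10 q. They also took the 3 head-to-head pairs with most H3K79me2 in the less covered gene, the 3 most uneven, the 3 shortest gaps without peaks, and 2 per missing list. Further rules took the 2 longest spanning peaks per orientation, textbook pairs, 2 tail-to-tail pairs with all lists, and 2 pairs per gene group. Sequences were printed for some of these, picked after their values were seen.

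Some marker genes and pairs are not reported here. Overlap counting was tested on simulated data. Python 3.11.15, numpy 2.4.6, pandas 2.3.3, scipy 1.17.1, statsmodels 0.14.6 and matplotlib 3.10.9 were used.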

Additional observations from a re-analysis of the deposited data

How the results depend on the processing

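The alternatives moved levels, and no difference between head-to-head and tail-to-tail pairs, or between pairs and isolated starts or ends, changed sign. In the gap alone H3.3 stood in 48.3% of head-to-head and 61.3% of same-direction gaps, beside 81.2% and 75.2% with the flanks. Median gaps were 166 bp in head-to-head, 487 bp in same-direction and 373 bp in tail-to-tail pairs, with 266 bp at isolated windows. Shares in the gap alone are thus not matched for length. Over all pairs, with peaks of −log10 q of at least 10 only, the shares of windows with a peak were 60.2% (H2AZ CST), 62.9% (H2AZ Abcam), 60.1% (H3.3), 29.1% (H4K16ac) and 60.5% (H3K79me2). With gaps of at most 500 bp they were 71.0%, 71.3% and 72.2% for H2AZ CST, H2AZ Abcam and H3.3, and 69.0% for H3K79me2. When a summit had to lie in the window they were 63.3%, 62.8% and 64.0%, with 49.1% for H4K16ac and 50.1% for H3K79me2. In the gap alone they were 51.0%, 57.7% and 45.7%, with 23.9% for H4K16ac and 53.5% for H3K79me2. Head-to-head minus tail-to-tail, the gap alone gave differences of 70.3 points (H2AZ CST), 81.8 points (H2AZ Abcam), 27.7 points (H3.3) and 5.23 points (H4K16ac). The stricter q gave 6.50 points for H4K16ac, and the summit rule 67.3 points for H3K79me2. The differences from isolated windows were recomputed under these settings after seeing the data. Head-to-head minus isolated starts, the stricter q gave 33.8 points for H2AZ CST and 7.97 points for H4K16ac, the summit rule 31.6 points for H2AZ Abcam, and the gap alone 24.3 points (H2AZ CST), 16 points (H3.3) and 1.72 points (H4K16ac, −1.09 to 4.81). Tail-to-tail minus isolated ends, H3.3 gave 22.6 points with the stricter q, 22.3 with the summit rule and 16.5 in the gap alone, H4K16ac 16.9 with the stricter q and 11.1 in the gap alone, and H3K79me2 6.90 with the summit rule and 8.40 in the gap alone. For H2AZ Abcam at tail-to-tail ends the summit rule gave 1.44 points (−0.162 to 4.06). H3K79me2 in both genes of all pairs stood at 54.4% with the stricter q, 62.3% with gaps of at most 500 bp and 49.0% with at least 500 bp covered, and in head-to-head pairs at 63.9% with the stricter q and 57.3% with at least 500 bp covered. Leaving out 135 gaps that another annotated gene overlaps, an alternative chosen after seeing the data, moved none of these 22 results beyond its counting interval. The cause of these shifts was not tested.

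No paired analysis was possible because each antibody had 1 library and no groups of samples were compared. Intervals cover counting error and not variation between cultures or libraries. The 2 genes of a pair, and pairs that share a gene, share peaks and are not replicates. A missing peak says that no peak was called at a depth that was not given in the sources used here. Windows of pairs vary with the gap, while isolated windows have 1 width. Orientation was not assigned to 562 pairs.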
